A study of Mus musculus with 10 samples.

Results

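Regulatory T (Treg) cells restrain immune responses and are defined by the transcription factor Foxp3. Bulk RNA-seq counts from Treg cells that had lost or kept Foxp3 protein were examined for the dual-specificity phosphatases (DUSPs) that switch off mitogen-activated protein (MAP) kinases. The group comprised 9 genes taken by symbol as family members, with no threshold on their values: Dusp1, Dusp2, Dusp4, Dusp5, Dusp6, Dusp7, Dusp10, Dusp14 and Dusp16. They were 9 of the 55809 gene rows counted, and 9 of 9 had a mean count of at least 10, as did 16363 genes in all, which were the genes tested.

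All mice carried a Foxp3-AID allele, in which the endogenous Foxp3 locus encodes Foxp3 with an auxin-inducible degron at its N terminus, and from the same transcript a ZsGreen reporter and Cre recombinase. In the 6 ROSA26-TIR1(F74G) libraries (R26-TIR1(F74G)), the ROSA26 locus held the mutated plant E3 ligase subunit TIR1(F74G) with an mCherry reporter under the CAG promoter, behind a loxP-flanked STOP cassette that Cre removes in cells that express Foxp3. The 4 ROSA26-WT libraries (R26-WT) came from mice without that ROSA26 allele. Both groups received the auxin analog 5-ph-IAA for 14 days. It lets TIR1(F74G) mark the degron fusion for destruction, so Foxp3 protein is lost in R26-TIR1(F74G) cells and kept in R26-WT cells. The cells labelled Treg were taken from spleen and lymph nodes. The comparison asks which phosphatase transcripts differ when Foxp3 protein is lost for this time. The labels do not state age, and the sequencing folder named in the file headers is marked male. For 14 days of degradation the paper describes hemizygous Foxp3-AID males, both neonatal and adult, and the labels do not say which these were. The control mice lacked TIR1 and mCherry as well as degradation, and the gate used for these particular libraries is not stated. The study's general sorting method took Treg cells from spleen and lymph nodes as CD4+TCRb+ZsGreen+, and for R26-TIR1(F74G) mice also as mCherry+. Under that method the gate and the genotype cannot be told apart.

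MAP kinases carry signals from the T cell receptor, co-stimulatory receptors and cytokines to the nucleus, and they are active only while a threonine and a tyrosine of their activation loop are both phosphorylated. Dual-specificity phosphatases remove both phosphates. The nuclear enzymes among them are encoded by genes that the kinases themselves induce, the cytoplasmic enzymes act mainly on ERK, and others prefer the stress-activated kinases JNK and p38, so the set of phosphatases in a T cell shapes which kinase stays active and for how long.

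Libraries held 44929734 to 54795718 counted read pairs in R26-WT and 24158699 to 49333756 in R26-TIR1(F74G). Values below are normalized counts, that is, counts divided by DESeq2 size factors, unless a length scale is named. The summed 6 Treg identity genes had 114789 to 134555 normalized counts in R26-WT and 112472 to 130040 in R26-TIR1(F74G), and Foxp3 itself 6816 to 11779 and 6778 to 16059. The degron acts on the protein, so the Foxp3 transcript (log2 fold change 0.07, SE 0.25) does not check the labels. None of the 6 Treg identity genes was called. Summed markers of other cells held 836 to 1372 (R26-WT) and 706 to 1184 (R26-TIR1(F74G)) for B cells, 74.4 to 125.3 and 92.0 to 154.6 for myeloid cells, 1865 to 2560 and 1403 to 2269 for CD8 T and NK cells, and 10.1 to 25.6 and 6.08 to 15.9 for erythroid cells. Most of the B cell sum came from Cd79b (raw counts 370 to 1341) and Cd79a (130 to 333), while Ms4a1 had raw counts of 0 to 4 and Pax5 of 0 to 3. Most of the CD8 T and NK sum came from Cd8b1 (raw counts 756 to 2226) and Nkg7 (230 to 881), while Cd8a had raw counts of 0 to 41 and Ncr1 was at 0 in all libraries. None of the tested genes of these 4 marker lists was called. One library stood apart in a list used below, R26-TIR1(F74G) replicate 9, whose summed activated Treg markers were 28661 against 18255 to 21328 in the other 9 libraries.

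Dusp10 rose after loss of Foxp3 protein, and it was the 1 phosphatase of the 9 whose transcript passed the test (DESeq2, Benjamini-Hochberg adjusted p under 0.05 over all 16363 genes). Over all tested genes 284 were called, or 1.74%. In the upward direction 1 of 9 phosphatases was called against 1.4% of all genes, and in the downward direction 0 of 9 against 0.336%. The edgeR quasi-likelihood test, which gave fewer calls over all genes (61, or 0.373%), also called 1 of 9, again Dusp10. With 9 genes a single call is the smallest count above 0, so these shares describe Dusp10 and not the group. The unadjusted p was under 0.05 for 2 of 9 genes, Dusp10 and Dusp1, and for 1122 of all 16363. The median log2 fold change was -0.12 over the 9 genes and 0.00063 over all tested genes, with 3 of 9 values above 0 and 6 below, against 8202 above and 8161 below over all genes.

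**Figure D1:**
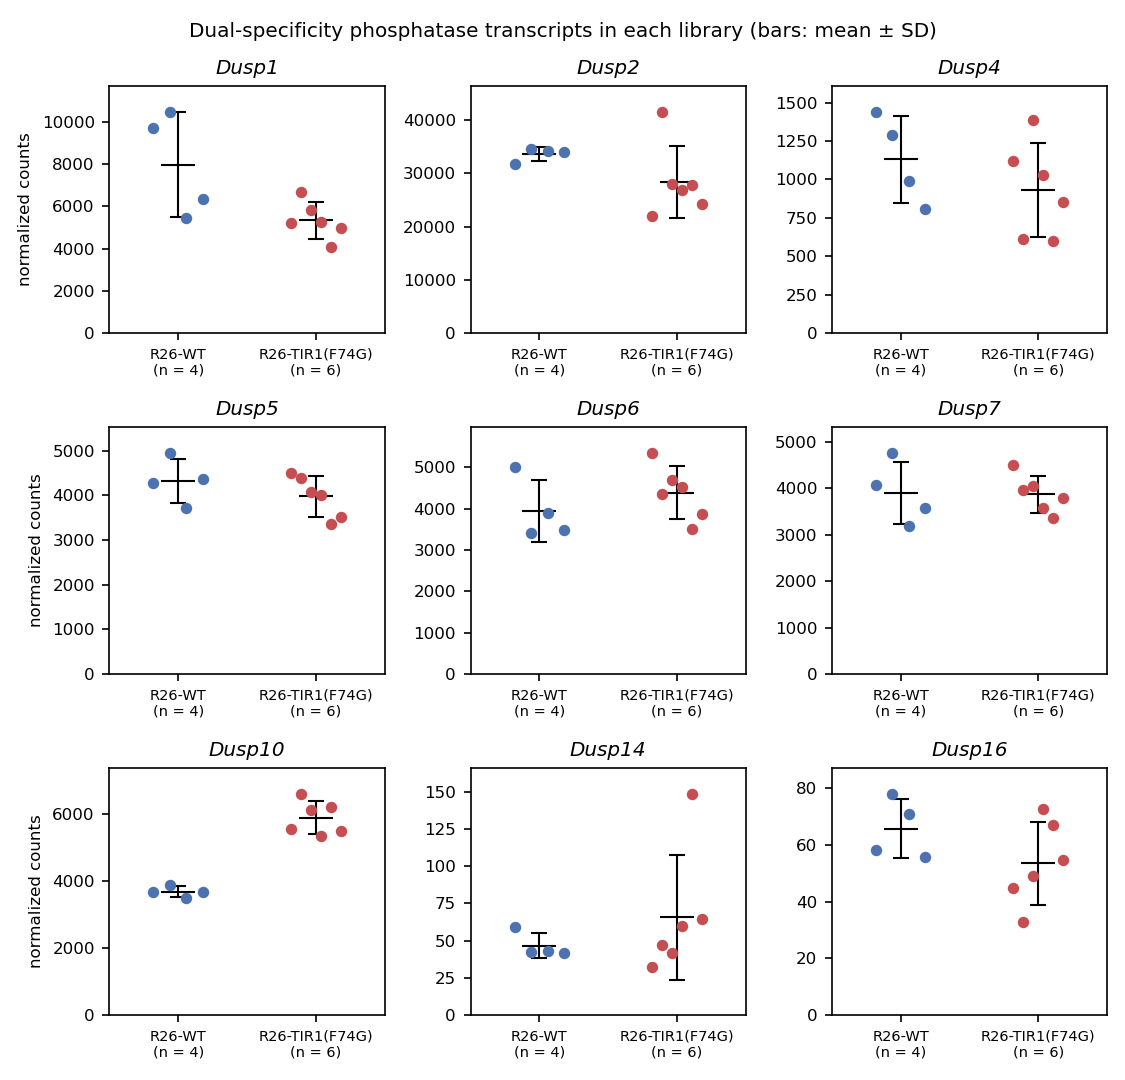
Normalized counts (y axis, each panel from 0) of the 9 phosphatases in the 4 R26-WT and 6 R26-TIR1(F74G) libraries. Points are libraries and bars are the mean ± SD. The 6 R26-TIR1(F74G) points of Dusp10 lie between 5347 and 6587, all above the highest R26-WT point of 3886, and the groups overlap in the other 8 panels.

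Dusp10 (MKP-5) acts on JNK and p38 in the cytoplasm and nucleus, and mice without it are known for altered T cell cytokine responses. Its gene row covers chromosome 1, 183745499 to 183807833 on the plus strand (GRCm39), with 6 merged exons and 3042 exon bases that no other counted gene overlaps. The R26-WT libraries had 3676, 3886, 3507 and 3662 normalized counts. The R26-TIR1(F74G) libraries ran from 5347 through a median of 5849 to 6587. Every R26-TIR1(F74G) library lay above every R26-WT library, a pattern seen in 1 of 9 phosphatases and in 2.37% of all tested genes counted in either direction (388 genes). The group means were 3683 ± 156 (SD, n = 4) and 5887 ± 492 (SD, n = 6), and the spread between replicates was small, at 4.23% and 8.35% of the mean. The log2 fold change was 0.68 (SE 0.095), a 1.60-fold rise with a 95% interval of 1.41 to 1.82. By DESeq2 the adjusted p was 9.93e-10, which ranked Dusp10 13th of all tested genes by p, and by edgeR it was 0.0109. Dusp10 stayed called under all 18 alternative analyses, each single library left out included, with log2 fold changes of 0.63 to 0.70.

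The phosphatase with the same kinase preference, Dusp16 (MKP-7, a JNK-directed enzyme that shuttles between nucleus and cytoplasm), was sparse. It is encoded on chromosome 6, 134692431 to 134769588 on the minus strand, in 7798 exon bases. The R26-WT libraries had 58.1, 77.7, 70.8 and 55.8 normalized counts, and the R26-TIR1(F74G) libraries 32.9 to 72.5 with a median of 51.9. The groups overlapped, with 4 of 6 R26-TIR1(F74G) libraries below the lowest R26-WT library. Raw counts were 32 to 87 read pairs, and the log2 fold change of -0.31 (SE 0.25, 95% interval -0.80 to 0.19) was not past the test (DESeq2 adjusted p 0.99996). It was -0.20 with R26-TIR1(F74G) replicate 6 dropped and -0.40 with replicate 8 dropped, neither called. The interval of Dusp16 lay entirely below that of Dusp10, which was 0.49 to 0.86 on the log2 scale.

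Dusp1 (MKP-1), the prototype of the inducible nuclear enzymes and itself an immediate early gene, had the next smallest p of the 9. Its row covers chromosome 17, 26724564 to 26781102 on the minus strand, with 3311 exon bases, of which 0.332% lie under Ergic1 on the other strand. The R26-WT libraries had 9715, 10450, 5428 and 6330 normalized counts. The R26-TIR1(F74G) libraries ran from 4061 through a median of 5242 to 6663. The control libraries themselves formed a higher pair (replicates 1 and 2) and a lower pair (replicates 3 and 4), and only the higher pair lay above all R26-TIR1(F74G) libraries. The same control pairs were closest over all genes, with a chi-square per degree of freedom of 24.2 within the higher pair and 14.2 within the lower pair, against 110.3 to 214.1 between them. Means were 7981 ± 2473 (SD, n = 4) and 5336 ± 872 (SD, n = 6), which gave a log2 fold change of -0.58 (SE 0.21, 95% interval -0.99 to -0.18). The unadjusted p of 0.00492 did not hold over all genes (DESeq2 adjusted p 0.174, edgeR adjusted p 0.342). The exact two-sided permutation p of this one value was 0.0429. It is unadjusted and is not used, since Dusp1 was singled out for its small p. Without R26-WT replicate 3, one of the lower pair, the log2 fold change was -0.73 and Dusp1 was called (DESeq2 adjusted p 0.0248). Without replicate 1 or replicate 2, the higher pair, it was -0.47 (DESeq2 adjusted p 0.69) or -0.42 (0.469).

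Printed next are the 250 bases before the RefSeq start site of Dusp10, the gene that rose, and of Dusp1, the nuclear phosphatase with the next smallest p, read 5′ to 3′ along the gene. RefSeq's table (GRCm38.p6) held 8 of the 9 genes and not Dusp4. The windows lie at chr1:184034131-184034380 (plus strand) and chr17:26508473-26508722 (minus strand) in that build, and each matched GRCm39 exactly once, at chr1:183766328-183766577 and chr17:26727447-26727696. Capitals mark GC boxes (GGGCGG or its reverse complement, the usual Sp1 motif) and the full cyclic AMP response element (TGACGTCA), both searched on both strands.
Dusp10: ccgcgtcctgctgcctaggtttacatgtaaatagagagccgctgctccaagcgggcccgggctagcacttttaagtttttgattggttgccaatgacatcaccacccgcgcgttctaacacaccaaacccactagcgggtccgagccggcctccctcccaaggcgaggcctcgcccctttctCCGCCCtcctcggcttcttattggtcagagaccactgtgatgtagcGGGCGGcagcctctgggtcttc
Dusp1: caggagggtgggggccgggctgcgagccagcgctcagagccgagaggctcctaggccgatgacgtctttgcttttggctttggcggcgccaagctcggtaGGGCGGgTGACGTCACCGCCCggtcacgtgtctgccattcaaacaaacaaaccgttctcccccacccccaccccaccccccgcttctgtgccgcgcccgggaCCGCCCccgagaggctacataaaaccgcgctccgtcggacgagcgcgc

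The Dusp10 window held 2 GC boxes and the Dusp1 window 3, a motif present in 32.7% of all 32851 promoter windows of the same length and in 6 of the 8 phosphatase windows (Dusp1, Dusp2, Dusp5, Dusp10, Dusp14 and Dusp16). The cyclic AMP response element, which binds CREB and ATF factors, was found in the Dusp1 window only, beginning at position -143 relative to the start site, and 1.55% of all windows held it. The forkhead letters GTAAACA, present in 3.17% of all windows, and the AP-1 letters TGANTCA (N is any base), present in 6.75%, matched none of the 8. Only these letters were searched, so a window without a match may still hold another form of either motif. These matches describe the letters of the windows, and the counted reads were not assigned to start sites. The gene rows reach beyond RefSeq's start site, with 250 exon bases of Dusp10 and 661 of Dusp1 lying before it.

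The other nuclear enzymes were not called. Dusp2 (PAC-1), a nuclear phosphatase characteristic of activated lymphocytes, had by far the most reads of the 9 (chromosome 2, 127178079 to 127180296, plus strand). The R26-WT libraries were close together at 31695, 34520, 34237 and 33955 normalized counts. The R26-TIR1(F74G) libraries ran from 22068 through a median of 27402 to 41424. In that group 5 of 6 libraries lay below the lowest R26-WT library, and 1, replicate 6, lay above the highest. Means were 33602 ± 1292 (SD, n = 4) and 28422 ± 6771 (SD, n = 6), and the log2 fold change was -0.24 (SE 0.17, 95% interval -0.57 to 0.09, DESeq2 adjusted p 0.99996). The result rested on replicate 6. Without it the log2 fold change was -0.38 and Dusp2 was called (DESeq2 adjusted p 0.038). That library's sums of the immediate early (125618), dissociation stress (101339), proliferation (12485) and activated Treg (19585) lists lay within the range of the other libraries of its group. Its Treg identity sum of 112472 was the lowest of the 10 libraries, against 114789 to 134555 in the other 9.

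Dusp4 (MKP-2), a nuclear enzyme for ERK and JNK, had 1436, 1292, 989 and 810 normalized counts in R26-WT and 599 to 1386 with a median of 943 in R26-TIR1(F74G). It lies on chromosome 8, 35274451 to 35287048 on the plus strand. The groups overlapped over most of their range, and the log2 fold change of -0.28 (SE 0.26, 95% interval -0.78 to 0.22) did not exceed the spread between replicates (DESeq2 adjusted p 0.99996). With 1 surrogate variable in the model it was -0.46 and called (DESeq2 adjusted p 0.00901). Leaving out 1 library moved it to as little as -0.14, when R26-WT replicate 1 was dropped, and to as much as -0.43, when R26-TIR1(F74G) replicate 7 was, with no call.

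Dusp5, the nuclear phosphatase most selective for ERK, had 4265, 4934, 3716 and 4364 normalized counts in R26-WT and 3365 to 4498 with a median of 4033 in R26-TIR1(F74G). It covers chromosome 19, 53517540 to 53530862 on the plus strand. The log2 fold change was -0.12 (SE 0.13, 95% interval -0.37 to 0.13), with overlapping groups. It was -0.051 with R26-WT replicate 2 dropped and -0.19 with replicate 3 dropped, neither called. Its count is less certain than the others, because 22.1% of its exon bases lie under the antisense gene Gm50394 (raw counts 56 to 247), and the counting command gave no strand option.

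The cytoplasmic ERK phosphatases Dusp6 (MKP-3) and Dusp7 (MKP-X) stayed within the spread of the replicates. Dusp6, encoded on chromosome 10 (99099093 to 99103351, plus strand), is the classical feedback inhibitor of ERK. The R26-WT libraries had 5004, 3403, 3889 and 3472 normalized counts and the R26-TIR1(F74G) libraries 3516 to 5332 with a median of 4441, a log2 fold change of 0.15 (SE 0.16, 95% interval -0.16 to 0.46). R26-WT replicate 1 was the high one of its group, and the other 3 lay in the lower part of the R26-TIR1(F74G) range or under it. Without that library the log2 fold change was 0.29, and with replicate 2 dropped in its place 0.089, neither called.

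Dusp7, encoded on chromosome 9 (106245831 to 106252923, plus strand), had the smallest difference of the 9. The R26-WT libraries had 4081, 4755, 3195 and 3576 normalized counts, and the R26-TIR1(F74G) libraries, at 3370 to 4506 with a median of 3886, lay inside that range. The log2 fold change was -0.0086 (SE 0.14), and its sign changed under 6 of 18 alternatives. The 95% interval of -0.28 to 0.26 leaves room for changes of about the size seen for Dusp2 or Dusp5.

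Dusp14 (MKP-6) is a small atypical enzyme that lacks the kinase-binding domain of the others and is known to act on TAB1 and MAP kinases below the T cell receptor. Its row covers chromosome 11, 83938867 to 83960087 on the minus strand. The R26-WT libraries had 58.9, 42.3, 43.1 and 41.4 normalized counts and the R26-TIR1(F74G) libraries 32.4 to 148.2 with a median of 53.7. The highest value belonged to replicate 9, where the activated Treg markers also summed highest, and the next highest was 64.2. The log2 fold change of 0.50 (SE 0.39, 95% interval -0.27 to 1.26) was 0.077 (SE 0.28) when replicate 9 was left out. Raw counts were 29 to 137 read pairs, and the interval with replicate 9 included leaves room for a moderate change of Dusp14. The part of the cell state of that library in this value was not tested.

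**Figure D2:**
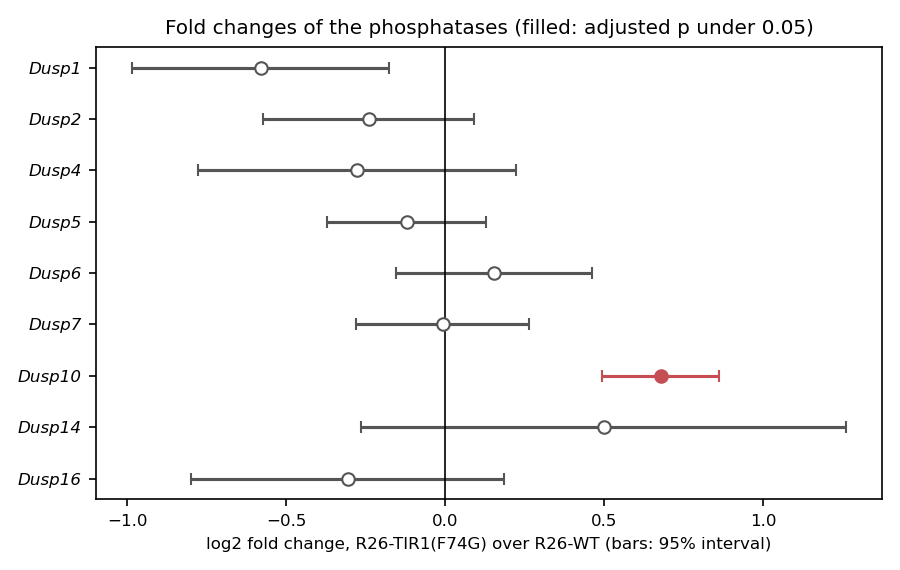
Log2 fold change of R26-TIR1(F74G) over R26-WT (x axis) for each phosphatase from DESeq2, with the 95% interval as a bar. The filled point is Dusp10 at 0.68, the one gene with an adjusted p under 0.05, and the intervals of 7 of the other 8 genes include 0, Dusp1 at -0.58 being the exception.

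Levels were then compared between the phosphatases per kb of exon, since a longer transcript yields more read pairs. On this scale Dusp2 stood first in all libraries, with 16776 ± 645 (SD, n = 4) normalized counts per kb in R26-WT and 14190 ± 3380 (SD, n = 6) in R26-TIR1(F74G). It made up 67.2% ± 3.92 and 63.2% ± 4.82 of the summed level of the 9 genes. Below it Dusp1 (2410 and 1612 per kb in the R26-WT and R26-TIR1(F74G) means), Dusp5 (1747 and 1606), Dusp10 (1211 and 1935), Dusp6 (1259 and 1400) and Dusp7 (1163 and 1156) formed a middle tier whose neighbours overlapped over the 10 libraries. Dusp4 followed at 413 and 341 per kb, apart from Dusp7 in every library. Dusp14 (23.9 and 33.7 per kb) and Dusp16 (8.41 and 6.86 per kb) were the lowest and were apart from each other and from Dusp4. The exon length was the union over all annotated transcripts, so the level of a gene whose outer exons are little used is understated on this scale.

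**Figure D3:**
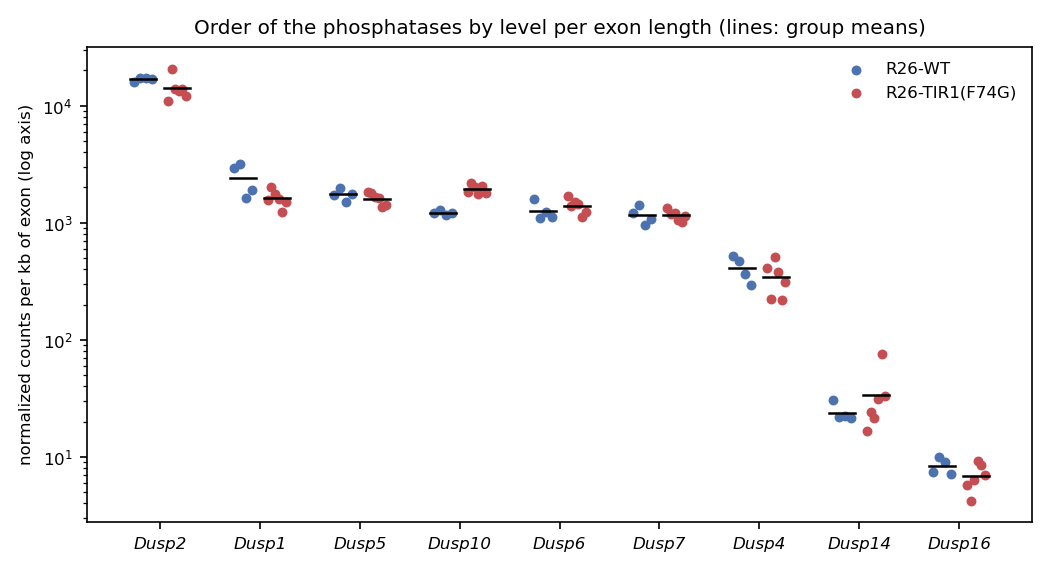
Normalized counts per kb of exon (log axis) of the 9 phosphatases in each R26-WT (blue) and R26-TIR1(F74G) (red) library, with lines at the group means. Dusp2 lies above the rest in all libraries, and Dusp10 moves from the lower part of the middle tier (1211 per kb) to its top (1935 per kb).

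Within this order the place of Dusp10 was exchanged between the groups. Per kb, Dusp5 was above Dusp10 in 4 of 4 R26-WT libraries and in 0 of 6 R26-TIR1(F74G) libraries. Dusp10 was above Dusp6 in 2 of 4 R26-WT libraries and in 6 of 6 R26-TIR1(F74G) libraries. Its share of the summed level of the 9 genes was 4.79% to 4.95% in R26-WT and 7.35% to 9.73% in R26-TIR1(F74G).

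Ratios within a library do not depend on its size factor, and they were computed after the call of Dusp10 was known. They are given as a description. Permutation tests of the 8 ratios were also computed and are not used, since Dusp10 was singled out for its call. The log2 ratio of Dusp10 to Dusp1 per kb was -1.30 to -0.51 in R26-WT and 0.11 to 0.73 in R26-TIR1(F74G), so Dusp10 went from below Dusp1 in all control libraries to above it in all Foxp3-depleted libraries. The ratio to Dusp5 was -0.64 to -0.38 in R26-WT and 0.0095 to 0.59 in R26-TIR1(F74G). The ratio to Dusp7 was -0.15 to 0.28 and then 0.45 to 1.02. The ratios to Dusp2 and Dusp16 did not overlap between the groups either, while those to Dusp4, Dusp6 and Dusp14 did. Against Dusp14 the ratio ran from 5.32 to 5.88 in R26-WT and from 4.74 to 6.78 in R26-TIR1(F74G), with replicate 9 at the low end.

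**Figure D4:**
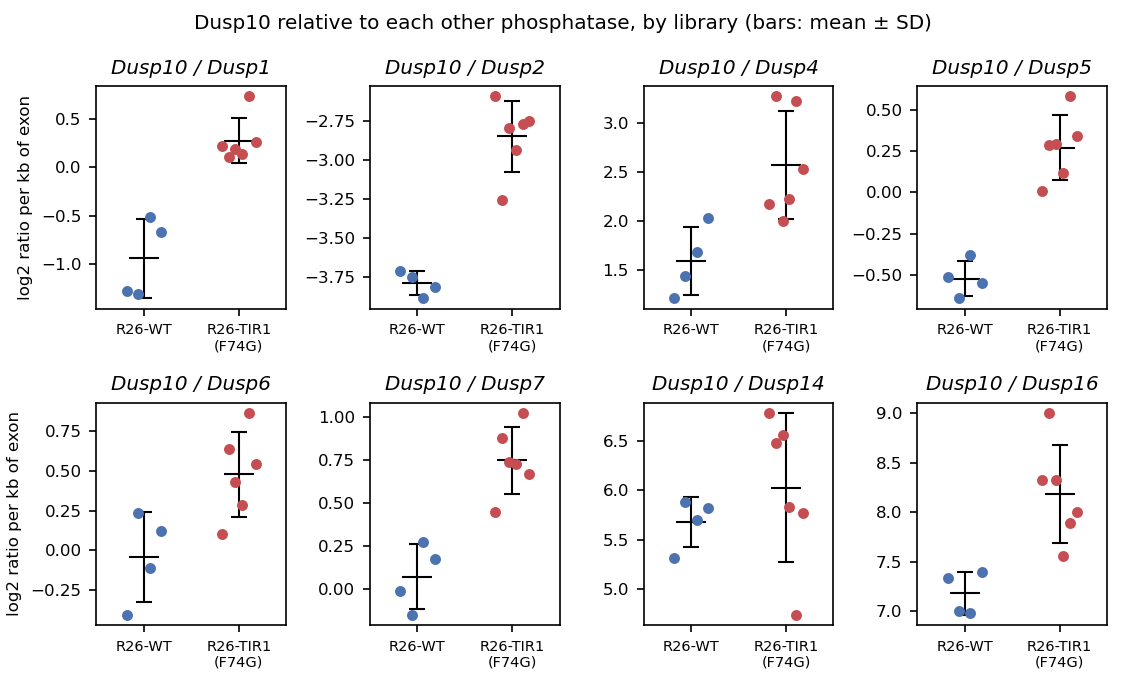
Log2 ratio of Dusp10 to each of the other 8 phosphatases, per kb of exon, in each library (points), with mean ± SD as bars. The groups are apart in 5 panels (Dusp1, Dusp2, Dusp5, Dusp7 and Dusp16) and overlap in those of Dusp4, Dusp6 and Dusp14.

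How the 9 genes varied together was examined within the groups, from variance-stabilized counts after subtraction of each group's mean over the 10 libraries. These are descriptions over 10 points that share depth and composition effects. Among the 36 pairs the median Pearson r was 0.15, and 20 pairs were positive. The highest pair was Dusp5 and Dusp7 (r = 0.82, Spearman rho = 0.79, r = 0.66 without the 2 libraries farthest from the median of Dusp5). The lowest was Dusp5 and Dusp14 (r = -0.68, rho = -0.78, r = -0.62 without 2 libraries).

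Among the 12609 genes with a mean normalized count of at least 50, the one whose deviations were most like those of Dusp10 was Slc30a7, a zinc transporter of the secretory pathway (r = 0.943, rho = 0.903). Slc30a7 differed little between the groups, with a log2 fold change of 0.035. For Dusp1 it was Mcl1, an anti-apoptotic member of the Bcl2 family (r = 0.985, rho = 0.988), with a log2 fold change of -0.034. For Dusp2 it was the predicted gene Gm11223 (r = 0.936), where rho was 0.673 and r was 0.724 without the 2 libraries farthest from the median of Dusp2. Gm11223 was itself called higher in R26-TIR1(F74G), with a log2 fold change of 1.23 (DESeq2 adjusted p 4.41e-13). Each is the highest value out of all genes searched and is large by that choice.

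Neither the MAP kinases on which these phosphatases act nor the kinases and Ras regulators upstream of them held a called gene. Of the MAP kinases 8 of 10 were tested and 0 called, with a median log2 fold change of -0.067, and Mapk10 was at 0 in all libraries. The smallest p values belonged to Mapk12 (p38 gamma), at 262 ± 12.5 and 186 ± 45.7 (SD, n = 4 and 6; log2 fold change -0.50, DESeq2 adjusted p 0.255), and Mapk8 (JNK1), at a log2 fold change of -0.097. All 7 MAP kinase kinases were tested and 0 called, Map2k2 (-0.11) and Map2k7 (0.14) having the smallest p. Of the 10 MAP kinase kinase kinases 0 were called. Map3k8 (Tpl2), which feeds the ERK pathway, had 2001 to 2437 normalized counts in R26-WT and 1560 to 1997 in R26-TIR1(F74G), groups just apart, but its log2 fold change of -0.34 had a DESeq2 adjusted p of 0.136. Of 11 genes of the Ras cycle 0 were called, and Rasal3, a Ras GTPase-activating protein, had a log2 fold change of 0.30.

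Other brakes on the pathway were likewise not called. Of 5 other MAP kinase phosphatases 3 were tested, and Dusp9 (0.63) and Ptpn5 (-0.14) had the smallest p. Ptpn7, a haematopoietic tyrosine phosphatase for ERK and p38, was abundant and level at 13580 ± 1954 and 13363 ± 1079 normalized counts (SD, n = 4 and 6). Ptprr was at 0 and Dusp8 had raw counts of 0 to 11. Of 10 other atypical dual-specificity phosphatases 6 were tested and 0 called, with Dusp12 (-0.16) and Dusp19 (-0.059) first by p. Of 7 other feedback inhibitors of ERK signalling, the Sprouty and Spred genes and Errfi1, 4 were tested and 0 called, with Errfi1 (-0.17) and Spred1 (0.11) first. In these lists the absence of a call includes genes below the count minimum, such as Spry4 with raw counts of 1 to 16.

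Immediate early genes are among those that MAP kinase signalling induces. Of 16 immediate early genes 14 were tested, and 3 were called, all lower in R26-TIR1(F74G), with 6 at an unadjusted p under 0.05 and a median log2 fold change of -0.34. Of the 14, 9 values were below 0 and 5 above it. Over all tested genes 0.336% were called lower. Jun fell from 16241 ± 3801 to 9906 ± 1123 normalized counts (log2 fold change -0.71, DESeq2 adjusted p 0.00109, edgeR adjusted p 0.0473). Junb fell from 55455 ± 12588 to 34075 ± 4193 (-0.70, DESeq2 adjusted p 0.00279, edgeR adjusted p 0.0673). Fos, the partner of Jun in AP-1, fell from 4126 ± 1955 to 2236 ± 543 by DESeq2 (-0.88, adjusted p 0.0493) and not by edgeR (adjusted p 0.244). The groups did not overlap for Jun and Junb and did for Fos. The direction of Dusp1 was that of these 3 genes, and that of Dusp10 was the opposite.

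Summed immediate early counts were 129810 to 177974 in R26-WT and 104403 to 131385 in R26-TIR1(F74G), ranges that overlapped. A list of dissociation stress genes was read beside them, and the part of tissue handling in the immediate early values was not tested. Of its 12 genes 11 were tested and 0 called, with 4 at an unadjusted p under 0.05 (2 with values below 0 and 2 above), against 1122 of all 16363 genes. Dnajb4, whose groups did not overlap (-0.42, DESeq2 adjusted p 0.182), and Zfp36 (-0.29) were first by p. The stress list had sums of 88775 to 99278 and 78917 to 102246 that overlapped. Of 13 MAP kinase substrates 0 were called, Elk1 (0.28) and Jund (-0.16) having the smallest p.

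Within the groups, the mean deviation of the 14 immediate early genes had positive correlations with Dusp6 (r = 0.77, rho = 0.75), Dusp1 (r = 0.56, rho = 0.61), Dusp4 (r = 0.52, rho = 0.48) and Dusp7 (r = 0.46, rho = 0.53), and a correlation near 0 with Dusp10 (r = -0.044, rho = -0.042). Without the 2 libraries farthest from each gene's median, r was 0.63 for Dusp6, 0.74 for Dusp1, 0.66 for Dusp4 and 0.64 for Dusp7. These correlations over 10 libraries were chosen after the values were seen.

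**Figure D5:**
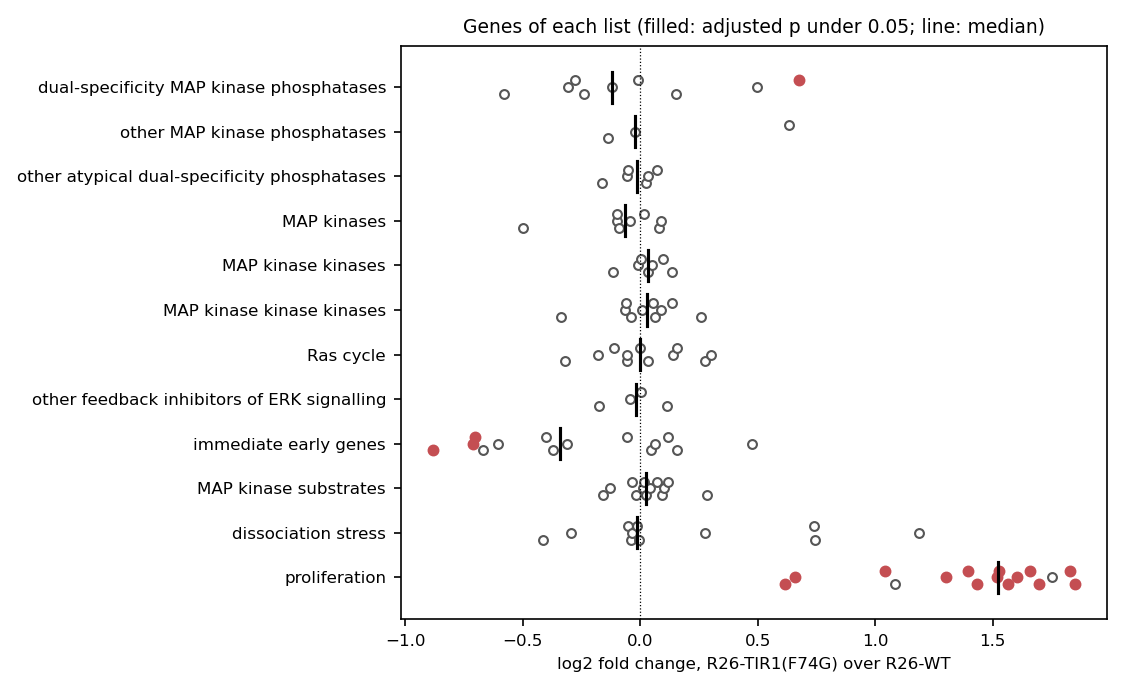
Log2 fold changes (x axis) of the tested genes of 12 of the lists (points; the Treg state and other marker lists are not drawn), with filled points for a DESeq2 adjusted p under 0.05 and a line at each median. Filled points appear for Dusp10, for 3 immediate early genes on the lower side (median of the list -0.34) and for 14 proliferation genes on the higher side (median 1.52).

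Genes of the cell cycle moved with the genotype, as Dusp10 did. Of 16 proliferation genes 16 were tested and 14 called, all higher in R26-TIR1(F74G) (6 by edgeR), against 1.4% of all tested genes. Their median log2 fold change was 1.52. This list, like the others, was chosen with earlier results of these data known. Stmn1 rose by 1.30, Rrm2 by 1.43 and Cdk1 by 1.40 on the log2 scale (DESeq2 adjusted p 1.31e-14, 3.39e-09 and 1.12e-08). Summed proliferation counts were 5018 to 7788 in R26-WT and 10917 to 19007 in R26-TIR1(F74G), without overlap, as for Dusp10. Within the groups the correlation of Dusp10 with the mean of these 16 genes was r = 0.36 (rho = 0.38), and 0.70 without the 2 libraries farthest from the median of Dusp10. Dusp4 (r = 0.62, rho = 0.49, r = 0.78 without 2 libraries) and Dusp1 (r = 0.55, rho = 0.64, r = 0.47 without 2 libraries), whose log2 fold changes were below 0, had higher r over the 10 libraries. R26-TIR1(F74G) replicate 7 had the highest proliferation sum, and its Dusp10 value of 6128 was inside the range of its group. The part of cell division in the Dusp10 difference was not tested, and in bulk samples a change in the mix of cells and a change of RNA per cell cannot be told apart.

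Genes of the activated and resting Treg states were counted in the same way. Of 14 activated Treg genes 1 was called higher, Tigit (1.73, DESeq2 adjusted p 0.0102, edgeR adjusted p 0.245), and 1 lower, Tnfrsf9, which encodes the co-stimulatory receptor 4-1BB (-0.49, DESeq2 adjusted p 5.65e-04, edgeR adjusted p 0.051). Of 8 resting Treg genes only Tcf7, a transcription factor of resting T cells, was called (0.43, DESeq2 adjusted p 0.0257, edgeR adjusted p 0.121). Within the groups Dusp14 went with the activated Treg mean at r = 0.88 (rho = 0.61), and at r = 0.26 without the 2 libraries farthest from the median of Dusp14. Dusp16 had r = 0.62 (rho = 0.64, r = 0.74 without 2 libraries). Dusp10 had r = 0.31 (rho = 0.32, r = 0.76 without 2 libraries). The lowest r was that of Dusp6 (r = -0.50, rho = -0.36, r = -0.50 without 2 libraries).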

How the data were processed

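The authors amplified low-input RNA with SMART-Seq v4, which keeps no strand and no molecular identifiers, so copies made by PCR are not independent and counting error is a lower limit. The deposited values were raw counts of read pairs per gene, 1 file per library, without any scaling. Per the file headers, the counter was featureCounts 2.1.1 on GENCODE M30 (GRCm39), taking alignments of mapping quality 30 or more. STAR is named in the study's methods and Bowtie2 in the submitters' processing notes, so the aligner was not settled. All 37 mitochondrial rows were 0 in all libraries.

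Genes whose mean count reached 10 were tested with DESeq2 1.42.0 (R 4.3.3, Wald test, two-sided, on genotype alone, Benjamini-Hochberg adjusted p under 0.05) and with the edgeR 4.0.16 quasi-likelihood test beside it, after a check on simulated counts. DESeq2 gave no adjusted p for 6 genes. Chi-square per degree of freedom was 9.45 to 215 over 21 replicate pairs, so no library was taken as a repeat of another. Library names carry a mouse number each. Nothing else states separate animals, and p-values then measure the spread between these libraries. Raw counts were 29 to 137 for Dusp14 and 32 to 87 for Dusp16, and at least 554 in all libraries for the other 7 genes.

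The 9 genes and all lists were chosen with earlier results of these data known. Named from each list were the called genes, at most the 3 with the smallest p, or else the 2 with the smallest p. From likeness, the most correlated gene was named for the 3 phosphatases with the smallest p, as were the highest and lowest pair. Ptpn7, Spry4, Cd8a and the genes at or near 0 were added by hand, and a few genes that these rules name are not reported here. Alternatives were edgeR, limma 3.58.1 (voom), TMM scaling, other count filters, thinning, removal of a gene-length trend, 1 surrogate variable (sva 3.50.0) and each library left out. Exact permutation tests used SciPy 1.17.1. Promoters came from RefSeq (GRCm38.p6).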

Additional observations from a re-analysis of the deposited data

Results flagged for a closer look

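In 18 sets of values (9 phosphatases in each group), the highest or lowest library was compared with its nearest neighbour by Dixon's ratio, and 3 libraries stood out, where chance gives about 0.9. Dusp2 was at 41424 normalized counts in R26-TIR1(F74G) replicate 6, with the other 5 libraries of the group at or below 27940. Dusp14 was at 148.2 in R26-TIR1(F74G) replicate 9, with the others at or below 64.2. Dusp14 was also at 58.9 in R26-WT replicate 1, with the others at 41.4 to 43.1.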

How the results depend on the processing

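Over 18 alternatives the 9 log2 fold changes gave 162 values, of which 152 kept their direction and their side of the threshold, 4 moved past it and 6 changed sign. Dusp10 was called in all 18 (0.63 to 0.70, DESeq2, edgeR or limma adjusted p 2.86e-18 to 0.0135). Values that moved past the threshold were Dusp1 with 1 surrogate variable (-0.62, DESeq2 adjusted p 0.0149) and without R26-WT replicate 3 (-0.73), Dusp4 with the surrogate variable (-0.46) and Dusp2 without R26-TIR1(F74G) replicate 6 (-0.38). Dusp7 changed sign under limma (0.050) and thinning (0.014), and without R26-WT replicate 1 (0.014) or 2 (0.10) or R26-TIR1(F74G) replicate 8 (0.016) or 9 (0.032), its range with 1 library left out being -0.092 to 0.10. The phosphatases called were 3 with the surrogate variable and 1 to 2 with 1 library left out. Genes called over all genes were 284 as reported (229 higher, 55 lower), 61 by edgeR, 80 by limma and 743 with the surrogate variable (468 higher, 275 lower), and 187 to 346 with 1 library left out, the lowest without R26-WT replicate 4. The causes were not tested. No paired analysis was possible because R26-WT is numbered 1 to 4 and R26-TIR1(F74G) 5 to 10. Raw counts of 29 to 137 and of 32 to 87 limit Dusp14 and Dusp16.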
